A study of Mus musculus with 30 samples.

Results

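Potassium channels set the resting potential of a muscle fibre and end its action potentials, so their levels bear on how readily a fibre fires again. Each channel is built from pore subunits, and some carry auxiliary subunits that shift when the pore opens. Myotonia, the delayed relaxation seen in myotonic dystrophy, is a disorder of fibre excitability. The genes described here are 9 potassium channel and auxiliary subunit genes of 56748 in the count table, and all 9 were among the 17518 genes tested. They were chosen by their values in these data, namely the differences between nontreated and wild-type mice and between the highest dose and nontreated mice. Both of those differences are therefore given as descriptions, with no test.

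Quadriceps muscle of 30 mice was profiled by RNA sequencing after poly(A) selection. WT mice (n = 5) were untreated FVB/N animals. All other mice carried the HSA-LR transgene, a human skeletal actin gene with a long CTG repeat that is expressed in skeletal muscle, on the FVB/N background (line 20b). NT mice (n = 8) were not treated. Further groups received pacDNA-L9 by tail vein: 4 mice got 5.3 mg/kg, 3 mice got 21.2 mg/kg, and the highest dose, 42.4 mg/kg, went to 3 mice. L9 is a locked nucleic acid oligonucleotide directed at the CUG repeat RNA, and pacDNA is its conjugate with a bottlebrush polymer. Controls were free L9 at 5.3 mg/kg (n = 3), the polymer alone at 40 nmol (Brush, n = 2) and a scrambled conjugate at 5.3 mg/kg (pacDNA-Scr, n = 2). Mice were injected from 8 weeks of age and muscle was taken 2 weeks after the last injection. By the study's account the 21.2 mg/kg dose was split over repeated injections and the 42.4 mg/kg dose over more of them, both within 2 weeks. Dose and number of injections therefore cannot be told apart. Age at sampling may also differ between the 5.3 mg/kg mice and those of the 2 higher doses. The labels give no age for WT and NT mice. The transgene is driven by the human skeletal actin promoter, so the repeat RNA arises mainly in muscle fibres.

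Library totals ran from 13605309 to 26956558 counts. The labels number 2 deposited sets separately, with 24 libraries in the first and 6 in the second, and 5 of the 6 held no mitochondrial counts. One mouse, free L9 B, stood apart: 14438 genes were detected in it at the depth of the smallest library, against 17479 to 21070 in the other mice. Sex was inferred from the counts of *Xist* and of Y-linked genes, not read from the labels. By this the 3 mice at 42.4 mg/kg were all female, whereas 4 of 8 NT mice were female. The columns of the 42.4 mg/kg mice belong to a group of 9 named differently from the rest. WT held 4 females of 5. Skeletal muscle fibre markers were high in every group, with all 8 tested and their summed level between 115000 and 167000 CPM (counts scaled to a common library size after TMM normalization) in WT and between 116000 and 176000 CPM in NT.

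Stretches of CTG in the members' own transcripts are shown first, because the RNA repeat is what L9 was designed to bind. Runs of at least 3 CTG units were searched as CTGCTGCTG in the sense sequence of annotated transcripts (GENCODE, GRCm39). They occurred in transcripts of 4 of the 9 genes and of 20.9% of 17420 tested genes with an annotated transcript. The runs are in capitals, with 6 bases on either side.
Kcnab1: caatagCTGCTGCTGCTGCTGctttga
Kcnn3: cccagcCTGCTGCTGttgtct
Kcnc4: ggaaccCTGCTGCTGgatgac
Kcnh2: ctcatcCTGCTGCTGgtcatc
The *Kcnab1* run lies at chr3:65265235-65265249 on the plus strand and holds 5 units, and a run of 4 or more was found in 3.86% of genes. It and the *Kcnn3* run at chr3:89576499-89576507, also on the plus strand, lie only in a retained-intron transcript without a coding sequence. The *Kcnc4* run at chr3:107365761-107365769 and the *Kcnh2* run at chr5:24531653-24531661, both on the minus strand, lie in coding sequence. *Kcnh2* has a further run in the 5′ UTR of 1 transcript. *Lrrc38*, *Kcna7*, *Kcnma1*, *Kcnj2* and *Kcnj11* had no run longer than 2 units. A match is a description of letters, and binding of L9 to these transcripts was not measured here.

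The members covered a wide range of levels. Per kb of exon in WT muscle, *Kcnj11*, a pore subunit of the ATP-sensitive channel, ranked 1 of the 103 genes of a potassium channel list at 45.2 ± 8.94 CPM per kb (SD, n = 5). *Kcnc4* followed at 38.7 ± 4.39 and *Kcna7* at 33.2 ± 5.82 CPM per kb, both pore subunits of voltage-gated channels. Each differed from its neighbour in this order by less than the larger of their SDs, whereas *Kcnj11* was above *Kcna7* in each of the 5 WT mice. *Abcc9*, the regulatory subunit of ATP-sensitive channels, and the voltage-gated subunits *Kcng4* and *Kcnc1* came next at 25.3, 17.1 and 11.6 CPM per kb. *Kcnj2* and *Lrrc38* had 9.07 ± 2.99 and 9.05 ± 1.44 CPM per kb. *Kcnab1*, *Kcnma1* and *Kcnh2* lay between 1.54 and 2.46 CPM per kb, and *Kcnn3* was lowest of the 9 at 0.201 ± 0.0587 CPM per kb.

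**Figure D1:**
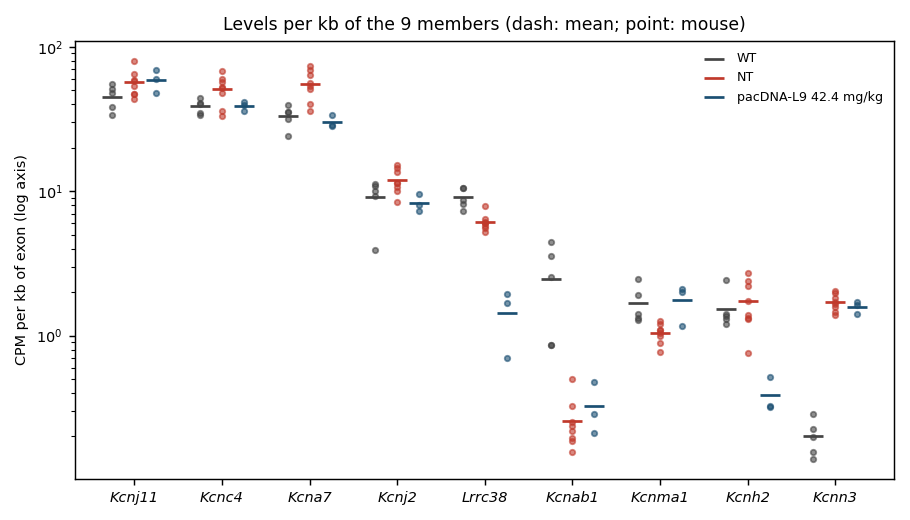
Level per kb of exon (CPM per kb, log axis) of the 9 genes in WT, NT and 42.4 mg/kg pacDNA-L9 mice, with a point for each mouse and a dash for the group mean. *Kcnn3* sits at 0.201 CPM per kb in WT and 1.70 in NT, and *Lrrc38* falls from 6.13 in NT to 1.44 at 42.4 mg/kg.

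*Kcnab1* and *Kcnn3* separated HSA-LR from WT muscle and stayed separated in every treated group. *Kcnab1* encodes an auxiliary beta subunit of voltage-gated channels (chr3:64856617-65285647, plus strand). It was at 10.8, 55.5, 44.7 and 31.9 CPM in WT mice 1 to 4 and at 10.7 CPM in the WT mouse whose column has no number. In NT mice 1 to 8 it was at 2.33, 6.23, 2.73, 3.15, 2.42, 2.94, 1.95 and 4.05 CPM. The groups did not overlap, although 2 WT mice lay well under the other 3. The log2 fold change was −3.25 (SE 0.36), or 9.50-fold lower in NT.

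At 42.4 mg/kg *Kcnab1* was at 2.63, 5.96 and 3.60 CPM, all within the NT range. That is a log2 difference from NT of 0.33 (SE 0.42) and 10.1% of the distance from NT to WT. With the column naming as a covariate in the first set the difference was 1.01 (log2, SE 0.535), against 0.27 (SE 0.474) in that set without it. This value thus moved with how the differently named columns are handled, but both SEs are wide. Across the 14 mice of the other 5 treated groups it ran from 1.27 to 5.37 CPM (median 3.56), under every WT mouse. Of its exon bases 8.98% lie under exons of genes on the other strand, and whether the counting used strand was not given in the sources used here.

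*Kcnn3*, a pore subunit of the small-conductance calcium-activated channel, went the other way (chr3:89427460-89582439, plus strand). This channel is found in immature and denervated muscle, where it is known for the long after-hyperpolarization. It was at 1.46 to 3.01 CPM in the 5 WT mice (median 2.07) and at 14.4 to 21.2 CPM in the 8 NT mice (median 17.5). No NT mouse came near a WT mouse, and the log2 fold change was 3.07 (SE 0.28), or 8.40-fold higher in NT. The mice at 42.4 mg/kg had 17.8, 14.7 and 17.0 CPM, a log2 difference from NT of −0.10 (SE 0.29). The 14 other treated mice ran from 11.8 to 40.2 CPM, all above WT, and 7 of them lay above every NT mouse. The highest was free L9 B.

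*Kcnma1*, the pore subunit of the large-conductance calcium-activated (BK) channel, was lower in NT by a smaller step (chr14:23339499-24064559, minus strand). It was at 22.7, 32.6, 24.2 and 21.9 CPM in WT mice 1 to 4 and 41.9 CPM in the unnumbered one, against 13.0 to 21.4 CPM in NT (median 18.1). The groups did not overlap but lay next to each other, and the log2 fold change was −0.70 (SE 0.18). Leaving out each mouse in turn gave −0.78 to −0.52. The 3 mice of the highest dose had 19.7, 34.1 and 35.9 CPM, so mouse A lay within the NT range and the other 2 above it. The log2 difference from NT was 0.76 (SE 0.21), and from WT 0.06 (SE 0.24). Among the 14 mice of the other 5 treated groups, 5 also lay above every NT mouse, with free L9 B highest at 29.9 CPM.

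In all, NT and WT mice did not overlap for 1 of the 9 genes in the higher direction and 2 in the lower. Over all genes tested the shares were 3.08% and 1.64%. For the 14 mice of the other treated groups against WT, *Kcnn3* did not overlap on the higher side and *Kcnab1* on the lower, with shares of 1.35% and 0.679% over all genes. Since the WT mice also entered the choice of members, nothing is read from these counts.

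**Figure D2:**
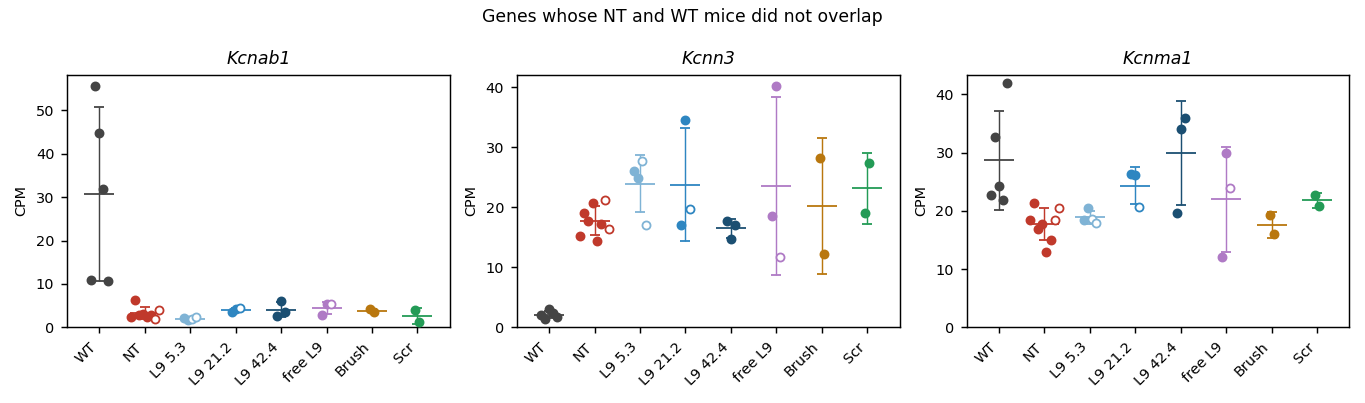
CPM of *Kcnab1*, *Kcnn3* and *Kcnma1* in each mouse by group, with the group mean and SD as lines and second-set libraries as open circles. *Kcnab1* stays at 6.23 CPM or less and *Kcnn3* at 11.8 CPM or more in every HSA-LR mouse, whereas 2 of 3 mice at 42.4 mg/kg have *Kcnma1* above the NT range.

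*Lrrc38* and *Kcnh2* marked the highest dose. *Lrrc38* encodes an auxiliary gamma subunit of BK channels, which lets the channel open at less positive potentials (chr4:143076327-143117353, plus strand). It was at 33.7 to 48.6 CPM in WT (median 40.1) and 23.9 to 36.3 CPM in NT (median 27.7). At 42.4 mg/kg it was at 8.96, 3.19 and 7.67 CPM. All 3 mice lay under every WT and NT mouse, with a log2 fold change against NT of −2.09 (SE 0.36), or 4.25-fold lower. Against WT the log2 fold change was −2.65 (SE 0.38), whereas NT differed from WT by −0.56 (SE 0.26). Its level at this dose was thus farther from WT than that of NT.

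The 2 lower doses gave 29.2, 21.9, 20.6 and 31.2 CPM at 5.3 mg/kg and 39.4, 28.0 and 15.2 CPM at 21.2 mg/kg. Only free L9 B, at 8.08 CPM, lay in the range of the highest dose among the 14 other treated mice. The other 5 differently named columns outside the 42.4 mg/kg group were at 48.1 (WT), 23.9 (NT 6), 29.5 (free L9 A), 36.9 (Brush B) and 30.6 CPM (pacDNA-Scr B). With that naming as a covariate the *Lrrc38* difference was −2.25 (log2), and with sex as a covariate −1.98. Of its exon bases 12.8% are shared with other genes on the same strand and 8.30% lie under exons on the other strand.

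*Kcnh2*, the pore subunit of the ether-a-go-go-related channel, is known in muscle for a rise during atrophy (chr5:24524567-24556762, minus strand). It was at 6.27 to 12.6 CPM in WT (median 7.08) and 3.90 to 14.1 CPM in NT (median 8.13). These ranges overlapped almost wholly, with a log2 difference of 0.16 (SE 0.36). The highest dose gave 1.69, 1.65 and 2.67 CPM, under every WT and NT mouse. The log2 fold change was −2.15 (SE 0.49) against NT and −1.99 (SE 0.51) against WT. Among the 14 other treated mice it ran from 1.91 to 15.9 CPM, with free L9 B lowest. The next lowest was 21.2 mg/kg C at 3.82 CPM, a second-set library. The deposited set moved with *Kcnh2*: first-set and second-set means were 10.2 and 5.41 CPM in NT and 10.9 and 5.48 CPM at 5.3 mg/kg. In the first set alone the log2 difference of 42.4 mg/kg from NT was −2.34. With the column naming as a covariate the difference was −2.25, and with sex as a covariate −1.88 (log2).

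*Kcna7*, a voltage-gated pore subunit found mainly in skeletal and heart muscle, was the third gene whose mice at 42.4 mg/kg lay under every NT mouse (chr7:45055077-45061072, plus strand). It was at 97.6 to 160 CPM in WT (median 143), 145 to 299 CPM in NT (median 224) and 137, 116 and 117 CPM at 42.4 mg/kg. Here the treated mice lay within the WT range. The log2 fold change was 0.74 (SE 0.26) for NT against WT, −0.87 (SE 0.32) for 42.4 mg/kg against NT and −0.13 (SE 0.33) for 42.4 mg/kg against WT. The deposited set moved with this gene: NT mice 7 and 8, of the second set, had 145 and 164 CPM, whereas NT mice 1 to 6 had 206 to 299 CPM. In the first set alone the differences were 0.89 and −1.03 (log2). Free L9 B was lowest of all mice at 50.2 CPM.

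Mice at 42.4 mg/kg and NT mice did not overlap for 3 of the 9 genes in the lower direction and 0 in the higher, against 3.05% and 3.95% of all genes. This contrast chose the members, so the count is a description. In bulk muscle, fewer cells of a type and less RNA per cell cannot be told apart.

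**Figure D3:**
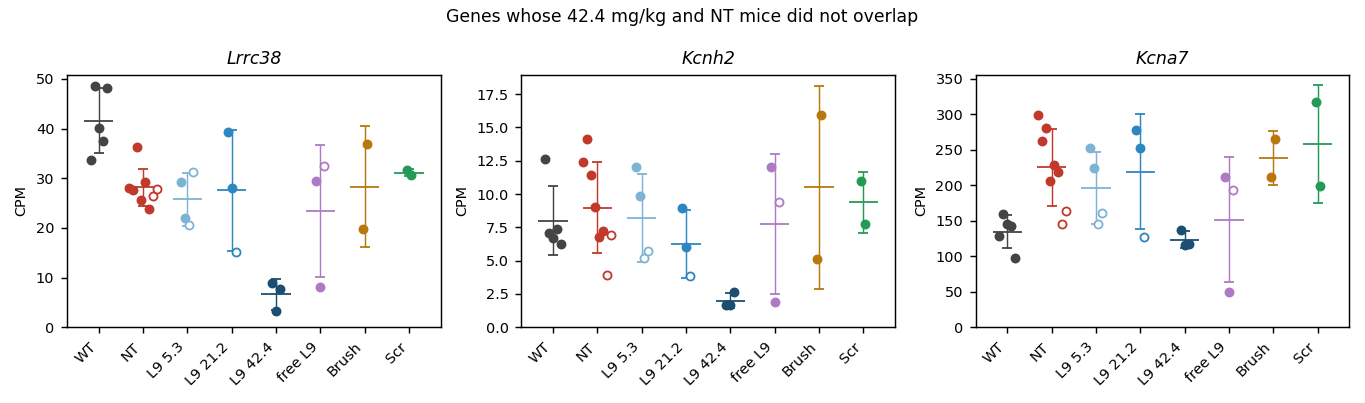
CPM of *Lrrc38*, *Kcnh2* and *Kcna7* in each mouse by group, with the group mean and SD as lines and second-set libraries as open circles. At 42.4 mg/kg *Lrrc38* (at most 8.96 CPM) and *Kcnh2* (at most 2.67 CPM) lie under WT and NT, while *Kcna7* lies under NT and within the WT range, and 1 free L9 mouse is low for each.

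The remaining 3 genes showed smaller steps. *Kcnc4*, a high-threshold voltage-gated subunit (chr3:107345603-107367781, minus strand), was at 169 to 222 CPM in WT, 168 to 343 CPM in NT and 208, 199 and 182 CPM at 42.4 mg/kg. Its log2 difference was 0.39 (SE 0.20) for NT against WT and −0.38 (SE 0.24) for 42.4 mg/kg against NT. The second set moved with it as with *Kcna7*: NT mice 7 and 8 were at 168 and 181 CPM, and NT mice 1 to 6 at 241 to 343 CPM, above every WT mouse. In the first set alone the differences were 0.55 and −0.54 (log2).

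*Kcnj2*, the classical inward rectifier that stabilizes the resting potential (chr11:110956981-110967665, plus strand), was at 21.4 to 61.8 CPM in WT and 46.1 to 83.4 CPM in NT. The highest dose gave 40.0, 43.8 and 52.4 CPM, so 1 of 3 mice lay within the NT range and all 3 within that of WT. The log2 differences were 0.40 (SE 0.25) and −0.53 (SE 0.30). *Kcnj11* (chr7:45743377-45750188, minus strand) was at 124 to 203 CPM in WT, 159 to 295 CPM in NT and 221, 256 and 176 CPM at 42.4 mg/kg. All 3 mice lay within the NT range, with log2 differences of 0.33 (SE 0.19) and 0.06 (SE 0.22).

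**Figure D4:**
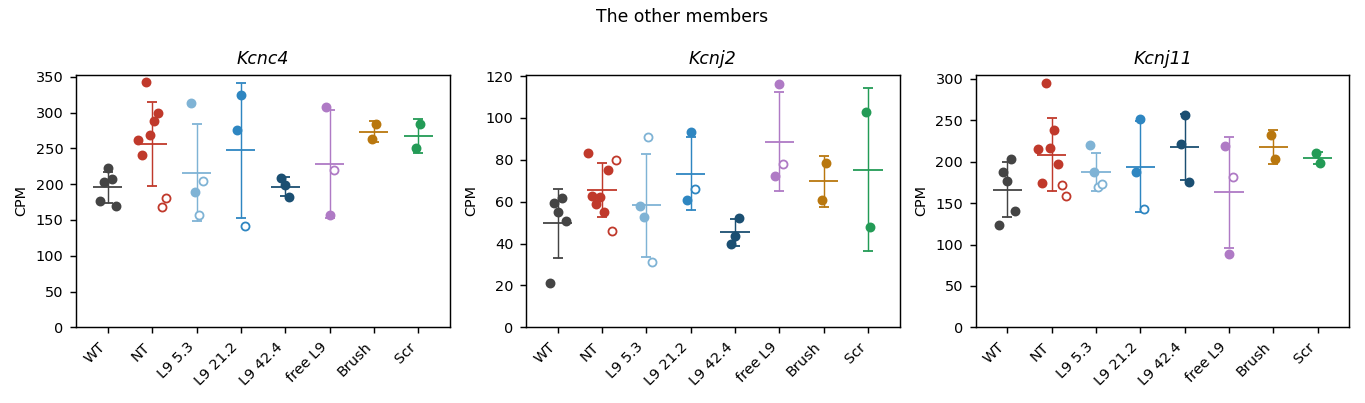
CPM of *Kcnc4*, *Kcnj2* and *Kcnj11* in each mouse by group, with the group mean and SD as lines and second-set libraries as open circles. The WT, NT and 42.4 mg/kg ranges overlap for each gene, and the open NT circles of *Kcnc4*, at 168 and 181 CPM, lie under the 6 filled ones.

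The differences by which the genes were chosen did not include the other 5 treated groups, and each of these groups was tested against NT. These comparisons share the 8 NT mice, which did enter the choice, so they are at most independent of it on the treated side. Earlier results of these data were also known when the genes were chosen. None of the 45 differences passed an adjusted p of 0.05 in edgeR's quasi-likelihood test, and 1 had an unadjusted p under 0.05. DESeq2 also called 0 of the 45. The log2 differences ran from −0.74 to 0.49, with SEs from 0.20 to 0.51. The lowest unadjusted p was that of *Kcnma1* at 21.2 mg/kg, where the mice had 26.3, 26.1 and 20.6 CPM and the log2 difference was 0.46 (SE 0.22). Its unadjusted p in that edgeR fit was 0.0443 and its adjusted p 1.0. *Kcnab1* at 5.3 mg/kg was at 2.03, 1.61, 1.81 and 2.30 CPM, a log2 difference of −0.74 (SE 0.40, edgeR adjusted p = 0.9995). The lowest adjusted p was 0.584, for *Kcna7* under free L9, at −0.57 (SE 0.31). Over all genes the calls came to 0.0% at 5.3 mg/kg, 0.0514% at 21.2 mg/kg, 0.126% under free L9, 0.0% under Brush and 0.0% under pacDNA-Scr. With SEs of this size, differences of the size seen for *Kcna7* at 42.4 mg/kg could have been missed in groups of 2 to 4 mice.

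Free L9 B decided several of the free L9 values. It was at 8.08 CPM for *Lrrc38*, 1.91 for *Kcnh2* and 50.2 for *Kcna7*, whereas the other free L9 mice were at 29.5 and 32.5, at 12.0 and 9.39, and at 212 and 193 CPM. It was also high for *Kcnn3* (40.2 CPM) and *Kcnj2* (116 CPM) and low for *Kcnj11* (88.6 CPM). For *Kcnma1* it was at 29.9 CPM, with the other free L9 mice at 12.1 and 23.9 CPM. Leaving out each mouse in turn moved the free L9 difference from −0.58 to 0.12 for *Lrrc38* and from −0.70 to 0.24 for *Kcnh2* (log2). The part of its low number of detected genes in these values was not tested.

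The wider potassium channel list held 103 genes, of which 58 were tested. Between NT and WT 1 of the 58 was higher and 7 lower, against 3.44% and 1.54% of all genes, and the median log2 difference was −0.29 for the list and 0.03 for all genes. Of those 8, *Kcnn3*, *Kcnab1* and *Kcnma1* are members chosen on this contrast. Among the 49 other list genes tested, 0 were higher and 5 lower, or 10.2%.

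*Kcns1*, a silent subunit that modifies other voltage-gated channels, had a log2 fold change of −6.39 (SE 0.96, edgeR adjusted p = 0.000139). It was at 2.05 to 7.70 CPM in WT and at 0.21 CPM or less in NT. *Kcnu1*, a pore subunit best known from sperm, was near the detection limit in both groups, at no more than 0.901 CPM (log2 fold change −2.62, SE 0.63, edgeR adjusted p = 0.0110). *Amigo1*, a membrane protein and auxiliary channel subunit, had a log2 fold change of −0.62 (SE 0.14, edgeR adjusted p = 0.00704). None of the 6 inward rectifiers or 6 two-pore subunits tested passed.

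At 42.4 mg/kg 3 of the 58 list genes were lower than in NT and 0 higher, against 0.651% and 1.92% of all genes. Of these, *Lrrc38* and *Kcnh2* are members chosen on this contrast. Among the 49 other list genes tested, 0 were higher and 1 lower, or 2.04%. That gene was *Lrrc55*, which like *Lrrc38* encodes a gamma subunit of BK channels. It had 1, 0 and 3 counts in the 3 treated mice and 4 to 24 counts in the 8 NT mice, a log2 fold change of −3.22 (SE 0.76, edgeR adjusted p = 0.0170). The call was lost with the column naming as a covariate (edgeR adjusted p = 0.122). Free L9 B was the highest of all mice for *Lrrc55*, at 2.19 CPM, where it was low for *Lrrc38*. None of the 58 genes passed in the other 5 comparisons, at 5.3 mg/kg, at 21.2 mg/kg, under free L9, under Brush and under pacDNA-Scr. In that order 0, 1, 7, 0 and 1 of them had an unadjusted p under 0.05 in edgeR's test. Over all 17518 genes tested, 250, 290, 1641, 217 and 182 did, so nothing is read from the list counts.

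**Figure D5:**
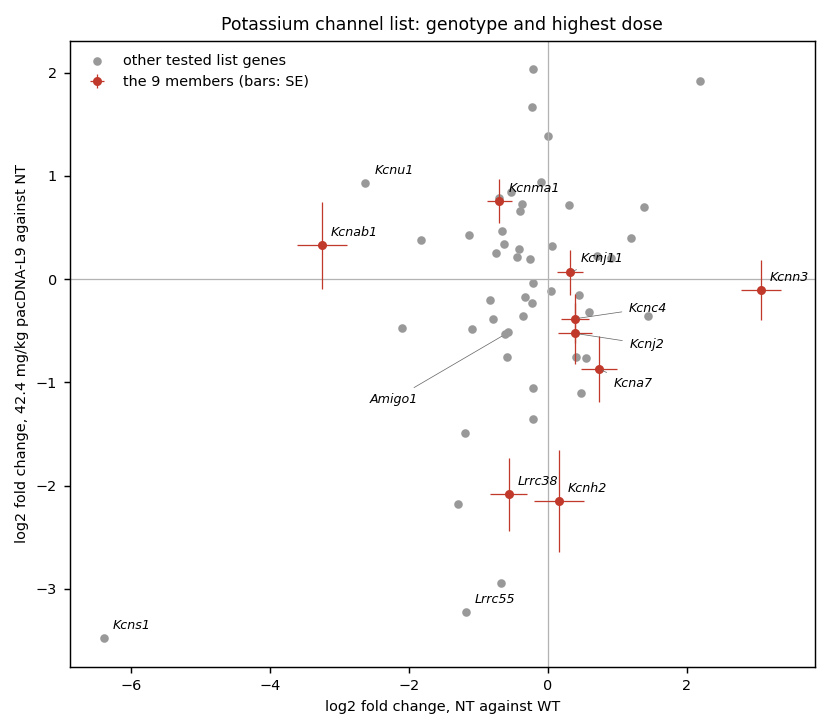
Log2 fold change of the 58 tested list genes for NT against WT (x axis) and for 42.4 mg/kg pacDNA-L9 against NT (y axis), which share the NT mice. The 9 members are red with SE bars, and the grey points named are among the genes called in either comparison. *Kcnab1* (−3.25) and *Kcnn3* (3.07) lie out along the x axis, and *Kcnh2* (−2.15), *Lrrc38* (−2.09) and *Lrrc55* (−3.22) down the y axis.

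Markers of other cells and fibre states also differed between groups. The 6 Schwann cell markers summed to 73.4 to 207 CPM in WT and 34.7 to 77.6 CPM in NT, and 4 of the 6 were lower in NT. The 8 markers of denervated or immature fibres summed to 68.1 to 117 CPM in WT and 83.8 to 164 CPM in NT. At 42.4 mg/kg they summed to 252 to 317 CPM. Of these markers 3 were higher in NT than WT, *Myh8*, *Ncam1* and *Runx1*. Another set of 3, *Gadd45a*, *Myog* and *Runx1*, was higher at 42.4 mg/kg than in NT, so only *Runx1* was in both. The 6 macrophage markers summed to 28.6 to 43.6 CPM in NT and 63.4 to 84.7 CPM at 42.4 mg/kg, with 2 of 6 higher. They were also above every NT mouse at 5.3 mg/kg (57.0 to 61.4 CPM) and under Brush (60.0 to 62.6 CPM). *Cd68* was higher in NT than in WT as well (log2 fold change 1.51, SE 0.30, edgeR adjusted p = 0.00225), the 1 macrophage marker of 6 that passed there. Of the 7 smooth muscle or pericyte markers 1, *Acta2*, was lower in NT, and their sums overlapped between WT (290 to 537 CPM) and NT (219 to 369 CPM). The endothelial, fibroblast, adipocyte, slow fibre and general muscle fibre lists had no gene past the threshold in either comparison. The slow fibre sums nevertheless varied widely between mice. They ran from 145 to 353 CPM in WT, 80.3 to 1430 CPM in NT and 173 to 1950 CPM at 42.4 mg/kg. The part of these cells in the members' values was not tested.

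Finally, the genes whose log2 CPM most resembled each member were listed over the 24 first-set libraries, among 13345 genes with a mean of at least 1 CPM. *Kcnn3* was most like *Camk1d* (Pearson r = 0.974) and *Fam171b* (0.965), and *Kcnab1* most like *Mib1* (0.907) and *Dcun1d2* (0.901). For *Lrrc38* they were *6430571L13Rik* (0.943) and *Fam78a* (0.936), and for *Kcnh2* *Tmem184b* (0.885) and *Ttyh2* (0.879). *Kcna7* was most like *Tas1r1* (0.922) and *Znrf1* (0.921), and *Kcnc4* most like *Inppl1* (0.854) and *Znrf1* (0.830). For *Kcnj11* they were *Insyn1* (0.903) and *Tfeb* (0.886), for *Kcnj2* *Ctsc* (0.792) and *Zfp462* (0.780), and for *Kcnma1* *Rhbdd1* (0.775) and *Mtrex* (0.766). With group means removed, r was 0.569 and 0.559 for the pair of genes named with *Kcnn3* and 0.622 to 0.906 for the other pairs. The libraries share groups and sequencing, so these are descriptions of likeness.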

How the data were processed

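Poly(A)-selected quadriceps RNA of 30 mice was read as paired ends. The authors mapped reads to the mouse genome GRCm39 with HISAT2 2.0.5, as their processing notes list, and deposited raw counts per Ensembl gene without normalization. Counting options and strand handling were not given in the sources used here. Libraries were assigned to groups from the labels, and 1 WT column could be matched to its group but not to a numbered mouse. Symbols and exon lengths came from GENCODE for 56017 of 56748 genes.

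Counts were analysed with edgeR 4.0.16 (filterByExpr, TMM, robust quasi-likelihood F-test, a coefficient for each of 8 groups, all 30 libraries) in R 4.3.3. Adjustment of p-values followed Benjamini and Hochberg over 17518 genes, with a threshold of 0.05. The SE of a log2 fold change was obtained from its size and the F statistic (size over root F). Levels are TMM-normalized CPM, per kb of exon where genes are compared. The members and gene lists were chosen with earlier results of these data known. Named were the 9 members, list genes past the threshold, the 6 list genes highest per kb in WT and the 2 genes most like each member. A few values were singled out after they were seen. Nothing states that mice of a group were separate litters or cages, so p-values measure the spread between these samples. Some list genes past the threshold are counted but not reported here. Alternatives included DESeq2 1.42.0.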

Additional observations from a re-analysis of the deposited data

Results flagged for a closer look

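Of 27 combinations of a member and a group of 4 to 8 mice, 3 held a mouse whose gap to its nearest neighbour was large for the range of its group. Chance gives about 1 in 20. NT 3 was the highest of 8 NT mice for *Lrrc38*, at 36.3 CPM with the next at 29.3 CPM. WT 1, the male WT mouse, was the highest of 5 WT mice for *Kcnh2*, at 12.6 CPM with the next at 7.35 CPM. The same mouse was the lowest for *Kcnj2*, at 21.4 CPM with the next at 50.8 CPM.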

How the results depend on the processing

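The count of list genes past the threshold at 42.4 mg/kg, 3 by edgeR, was 1 with the column naming as a covariate in the first set (*Lrrc38*), 6 with only the compared groups in the model and 6 with DESeq2. Leaving out each mouse in turn gave 1 to 3. Without 42.4 mg/kg mouse B 1 remained, *Lrrc38*, and without mouse A *Lrrc38* and, higher, *Kcnma1*. Both are members whose choice used this contrast, so these calls are descriptions and give no support. Over the comparisons of the other 5 treated groups with NT, the list count was 0. It was 1 in the first set alone (*Kcnj12* under free L9). When each mouse was left out it was 0 to 1 (1 without free L9 C, *Kcna1*). The list count for NT against WT ran from 6 to 12 over all alternatives, and from 6 to 9 when each mouse was left out. *Kcna7* and *Kcnc4* joined it in the first set alone. *Kcna7* also joined it under other alternatives, among them DESeq2 and the deposited set as a covariate. Both are members, so these calls too are descriptions. The 45 member tests gave 0 calls under each alternative run. Sex within the first set was an alternative chosen after seeing the data. For 450 comparisons of a member's log2 difference with an alternative, 446 moved by less than 1 SD between mice and 6 changed sign.

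Replicate numbers 1 to 4 are shared by WT and NT mice, and the correlation of their deviations was 0.144, −0.049, 0.106 and 0.168, so 3 of 4 pairs were above 0.1 and pairing by number was not established. With the replicate block, and without it in the same mice, 8 list genes passed. Groups of 2 to 4 mice limit what could be detected.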

Other observations

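Within groups, after the group means were removed, several members varied together over the 24 first-set libraries. *Kcnc4* and *Kcnj11* had a Pearson r of 0.815, *Kcna7* and *Kcnh2* 0.776, *Kcna7* and *Kcnj11* 0.688, and *Lrrc38* and *Kcnh2* 0.661. *Kcna7* also had 0.687 with *Lrrc38* and 0.655 with *Kcnc4*, so no separate blocks stood out. *Kcnma1* ran against *Kcnc4* (−0.664) and *Kcna7* (−0.617). *Kcnab1* and *Kcnn3*, with an r of −0.823 over all 24 libraries, had 0.153 within groups. These are descriptions, since the libraries share depth and sequencing and free L9 B is among them.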
